A study of Mus musculus with 4 samples.

Results

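The insulin-like growth factor (IGF) system was followed through 10 genes, picked by symbol from the 32285 genes of the deposited mouse ovary count tables: the ligands Igf1 and Igf2, the receptors Igf1r and Igf2r, and the binding protein genes Igfbp2, Igfbp3, Igfbp4, Igfbp5, Igfbp6 and Igfbp7. Each of the 10 was present in the tables and was counted per cell type and per library. The 4 libraries came from mice treated from postnatal day 25. The control received PBS or saline, and a second group received doxorubicin at 3 mg/kg in 2 weekly doses. Another group had those doxorubicin doses together with AMH (anti-Müllerian hormone, the recombinant human protein) at 0.75 mg/kg, and is written doxorubicin+AMH below. The last group was given AMH at 0.75 mg/kg alone. Ovaries were dissociated 4 hours after the second doxorubicin dose. Each library pooled a single ovary from each of 5 animals, so animals were not measured apart. Every difference described here is therefore between 2 libraries and has no replicate check. The strain was not named in the labels.

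IGF peptides act on the IGF type 1 receptor, a tyrosine kinase encoded by Igf1r that signals through insulin receptor substrates to PI3 kinase and AKT. Igf2r encodes the cation-independent mannose-6-phosphate receptor, which takes IGF2 to lysosomes. The IGF binding proteins are secreted proteins that hold the ligands in the extracellular space, and proteases such as PAPP-A free them again. In the mouse follicle, granulosa cells make IGF1, which acts together with follicle-stimulating hormone on their growth and differentiation. AMH is made by granulosa cells of growing follicles and signals through its own type 2 receptor, Amhr2, to the SMAD proteins of the BMP class. Doxorubicin is an anthracycline that damages DNA.

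The libraries held 7141 to 9478 cells and 138647495 to 178279122 UMIs (molecular tags that count each captured transcript once). After filtering, 28465 cells were kept, by library 7976 (control), 6045 (doxorubicin), 6553 (doxorubicin+AMH) and 7891 (AMH). Joint clustering gave 36 clusters, of which 32 were named in 11 classes from marker lists. A class name ends in "-like" because it rests on these markers alone. No cluster could be named as oocytes, so the germ cell side of the IGF system was not analysed here. Only 103 of 33536 distinct cell barcodes occurred in more than 1 library. In 3 granulosa-like clusters most cells came from 1 library: 184 of 190 and 78 of 79 cells were from doxorubicin, and 128 of 134 were from AMH. Levels are given as CPM, the UMIs of a gene per 1000000 UMIs summed over the cells of a class or cluster in 1 library. Series of 4 values follow the order control, doxorubicin, doxorubicin+AMH, AMH. Ratios between libraries are log2 with exact 95% intervals, which cover counting error only. Since 3′ transcript counts were not scaled by gene, levels are compared between cells and libraries, not between genes.

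Only 6 classes had at least 50 cells in every library and were compared: granulosa-like, theca-like, stroma-like, mural smooth muscle-like, blood endothelial-like and macrophage-like cells. Of the 60 pairs of a gene and a class, 41 had 20 CPM or more on average across libraries. Igf2 reached it in none of the 6 classes. Counts below leave out pairs under that level, except where they are given without this filter at the end. Past 2-fold means an absolute log2 ratio of at least 1. For doxorubicin / control, 2 of the 41 pairs were past 2-fold, both lower, against 0.85% of all 39316 gene and class pairs in either direction (0.31% higher, 0.539% lower). For doxorubicin+AMH / AMH, 3 pairs were past 2-fold, all lower, against 0.852% (0.282% higher, 0.57% lower). For AMH / control, 5 pairs were higher and 1 lower, against 1.78% (0.761% and 1.02%). For doxorubicin+AMH / doxorubicin, 6 pairs were higher and 2 lower, against 2.36% (0.949% and 1.41%). Neither of the last pair of comparisons shares a library with the other, and the same is true of the first pair. Each comparison of one pair does share a library with each of the other pair. Of the 19 ratios past 2-fold, 9 involved theca-like cells, and cluster values are given beside those below.

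**Figure D1:**
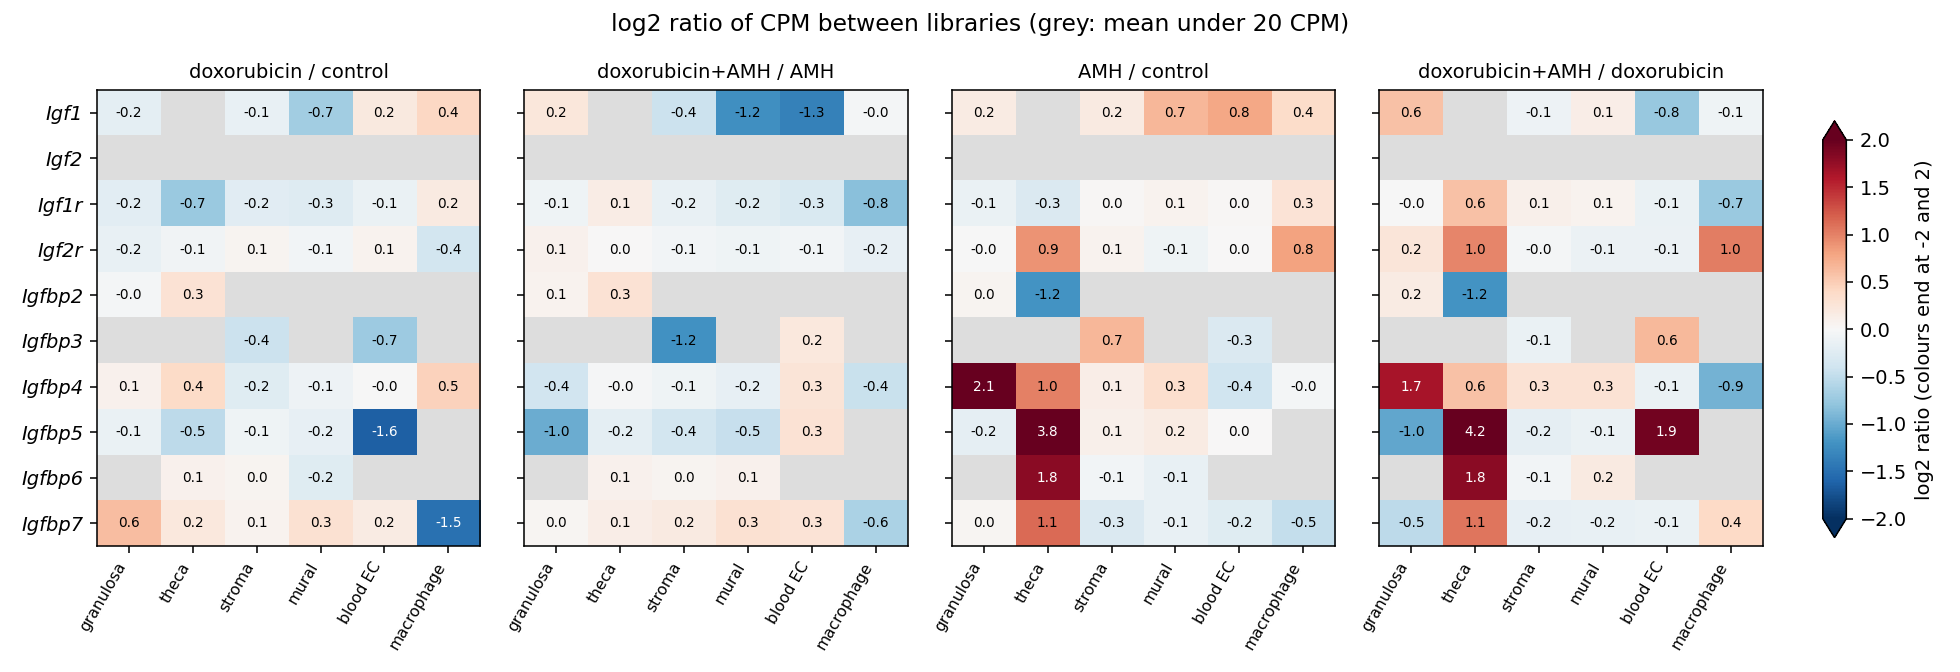
Each cell of the map is the log2 ratio of CPM between the 2 libraries named above the panel, with the 10 genes in rows and the 6 compared classes in columns (mural, mural smooth muscle-like; EC, endothelial-like cells). Grey marks pairs under a mean of 20 CPM, and colours end at -2 and 2. Among the darkest cells in both AMH panels are Igfbp4 in granulosa-like cells (2.12 and 1.65) and Igfbp5 and Igfbp6 in theca-like cells. Igfbp5 in blood endothelial-like cells (-1.63) is the darkest blue of the doxorubicin / control panel.

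The promoters of Igfbp4 and Igfbp5 are shown because the levels of Igfbp4 in granulosa-like cells and of Igfbp5 in theca-like cells differed between libraries with and without AMH. Igfbp4 lies at chr11:99041244-99054392 on the plus strand of mm10 (GRCm38), and no annotated gene overlaps it. Igfbp5 lies at chr1:72857932-72874884 on the minus strand, next to Igfbp2 at chr1:72824503-72852474 on the plus strand, and the 2 genes face each other with their 3′ ends 5458 bp apart. The sequences below are the bases before the start site of each gene, from RefSeq (GRCm38.p6), and all 10 genes had an entry there. They are written 5′ to 3′ on the gene's strand, chr11:99040994-99041243 for Igfbp4 and chr1:72874885-72875115 for Igfbp5. The Igfbp5 stretch was cut to 231 bases, so that it ends before the gene as annotated. Capitals mark the letters TATAAA.
Igfbp4: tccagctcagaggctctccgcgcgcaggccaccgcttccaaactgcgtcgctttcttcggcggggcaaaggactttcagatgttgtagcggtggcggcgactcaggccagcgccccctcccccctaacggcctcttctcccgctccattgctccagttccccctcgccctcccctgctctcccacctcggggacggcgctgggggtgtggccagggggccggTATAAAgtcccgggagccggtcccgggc
Igfbp5: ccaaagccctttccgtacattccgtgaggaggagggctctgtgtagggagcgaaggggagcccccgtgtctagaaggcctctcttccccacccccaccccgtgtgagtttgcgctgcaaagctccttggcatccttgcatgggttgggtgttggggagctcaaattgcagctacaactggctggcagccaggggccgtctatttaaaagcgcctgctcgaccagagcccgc
Motifs were searched on both strands in the 250 bases before each start site. The letters GGCGCC, a GC-rich element bound by SMAD proteins of the BMP class, occurred in 9.54% of all 27025 such windows, and CAGAC, the short SMAD element, in 42.1%. Neither occurred in the Igfbp4 or the Igfbp5 window. GGCGCC was found in 1 of the 10 genes, Igf1, and CAGAC in 5 of the 10 over their 14 windows, with Igf1r and Igf2r among them. With only the first window of each gene, CAGAC was in 3 of the 10. TATAAA occurred in 13.0% of all windows, in Igfbp4 once and in Igfbp5 not at all. These matches describe letters in 1 window per start site and say nothing of binding.

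The ligand Igf1 was counted mainly in granulosa-like cells, which held 54.2%, 57.1%, 70.5% and 60.2% of its UMIs. Its level there was 151, 132, 197 and 169.5 CPM, highest in the 2 libraries with AMH. The log2 ratio of doxorubicin+AMH to doxorubicin was 0.58 (95% interval 0.54 to 0.62), and that of AMH to control was 0.17 (95% interval 0.13 to 0.20), neither past 2-fold. Within the 6 granulosa-like clusters with at least 50 cells in every library, Igf1 was higher in doxorubicin+AMH than in doxorubicin in all 6, and lower in doxorubicin than in control in all 6. The largest difference was in the cluster led by Cdh12, Cntn4 and Gatm, at 147, 134, 304 and 259 CPM. There doxorubicin+AMH against doxorubicin gave 1.18 (1.08 to 1.28), past 2-fold. The cluster led by Prg4 and Ntn4 had the lowest Igf1 level of the 6, at 63.7, 59.5, 91.0 and 84.8 CPM.

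Macrophage-like cells had the highest mean Igf1 level of the classes, at 276, 369.6, 349 and 356 CPM, but their range over the libraries overlapped that of surface epithelial-like cells (298, 367, 46.1 and 454 CPM). The surface epithelial-like values rest on 105, 92, 37 and 65 cells. The doxorubicin+AMH value came from 26 UMIs, while the other 3 libraries had at least 727. Most surface epithelial-like Igf1 came from a cluster led by C3 and Slpi, at 1013, 951, 373 and 848 CPM in 41, 38, 3 and 34 cells. Granulosa-like, mural smooth muscle-like and stroma-like cells followed in the order of means, and mural cells overlapped the classes on either side. Theca-like cells had 4.92, 5.62, 19.4 and 19.4 CPM, from 127, 109, 317 and 356 UMIs, and erythroid-like cells, which should lack the gene, had 0, 24.9, 13.0 and 5.96 CPM, from 0, 10, 5 and 1 UMIs. The theca-like level was above the erythroid-like level in 3 of the 4 libraries and below it in doxorubicin. In doxorubicin+AMH and AMH it lay within the erythroid-like counting intervals (4.21 to 30.2 and 0.15 to 33.2 CPM), so by CPM it was not told apart from background. Those intervals are wide, from 5 and 1 UMIs. Without thinning, 10.3, 11.2, 23.3 and 22.4% of theca-like cells had an Igf1 UMI. The erythroid-like shares were 0, 6.78, 4.11 and 2.56%, in cells of lower depth.

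Outside the follicle, Igf1 was concentrated in particular clusters. A stroma-like cluster led by Clec3b and Dpt had 422, 349.7, 340.4 and 442 CPM, while the other 4 stroma-like clusters with at least 50 cells in every library did not exceed 176 CPM in any library. Among mural smooth muscle-like cells, the cluster led by Des, Synpo2 and Postn had 331, 135, 221 and 684 CPM, against 84.9, 82.7, 82.5 and 102 CPM in the larger cluster led by Acta2 and Myh11. The Des-led cluster held 200, 19, 58 and 180 cells, so its doxorubicin value rests on 39 UMIs of 19 cells. For the whole mural class the levels were 129, 79.9, 87.8 and 204 CPM, and doxorubicin+AMH against AMH gave -1.22 (95% interval -1.32 to -1.12), past 2-fold (0.592% of all genes in this class were). Weighting each cell equally gave -0.91, no longer past 2-fold. The same ratio inside the Des-led cluster was -1.63 (-1.89 to -1.38), and in the Acta2-led cluster it was -0.30 (-0.43 to -0.18). In blood endothelial-like cells Igf1 was at 24.7, 28.2, 16.6 and 42.3 CPM, from 91, 78, 18 and 95 UMIs. Doxorubicin+AMH against AMH gave -1.35 (95% interval -2.16 to -0.61) there, where 1.61% of all genes were past 2-fold. The doxorubicin+AMH value lay inside the erythroid-like counting interval given above for Igf1 and is not told apart from background. Summed stroma markers in these endothelial-like cells were 301, 334, 276 and 629 CPM, also highest in AMH; their part in the Igf1 value was not tested.

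Igf2, the fetal-type ligand, had its highest level in lymphatic endothelial-like cells, with 396, 329, 256 and 298 CPM in 77, 38, 45 and 56 cells. The highest level of another class in any library was 10.0 CPM, and the lymphatic range did not overlap that of any other class. Lymphatic endothelial-like cells held 73.0%, 42.2%, 58.9% and 50.4% of Igf2 UMIs, and stroma-like cells 16.1%, 34.0%, 20.7% and 19.6%. Within the stroma-like class, the cluster led by Clec3b and Dpt had 28.8, 38.6, 13.3 and 31.8 CPM, from 109, 124, 23 and 99 UMIs. Igf2 counts carry a limit of the annotation. Of the 3′ end windows of its transcripts, 62.9% lie also in Gm49394, a gene model on the same strand, so reads there may not have been counted for either gene. Igf2 lies at chr7:142650766-142666816 on the minus strand of mm10, and Igf1 at chr10:87858265-87937042 on the plus strand.

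**Figure D2:**
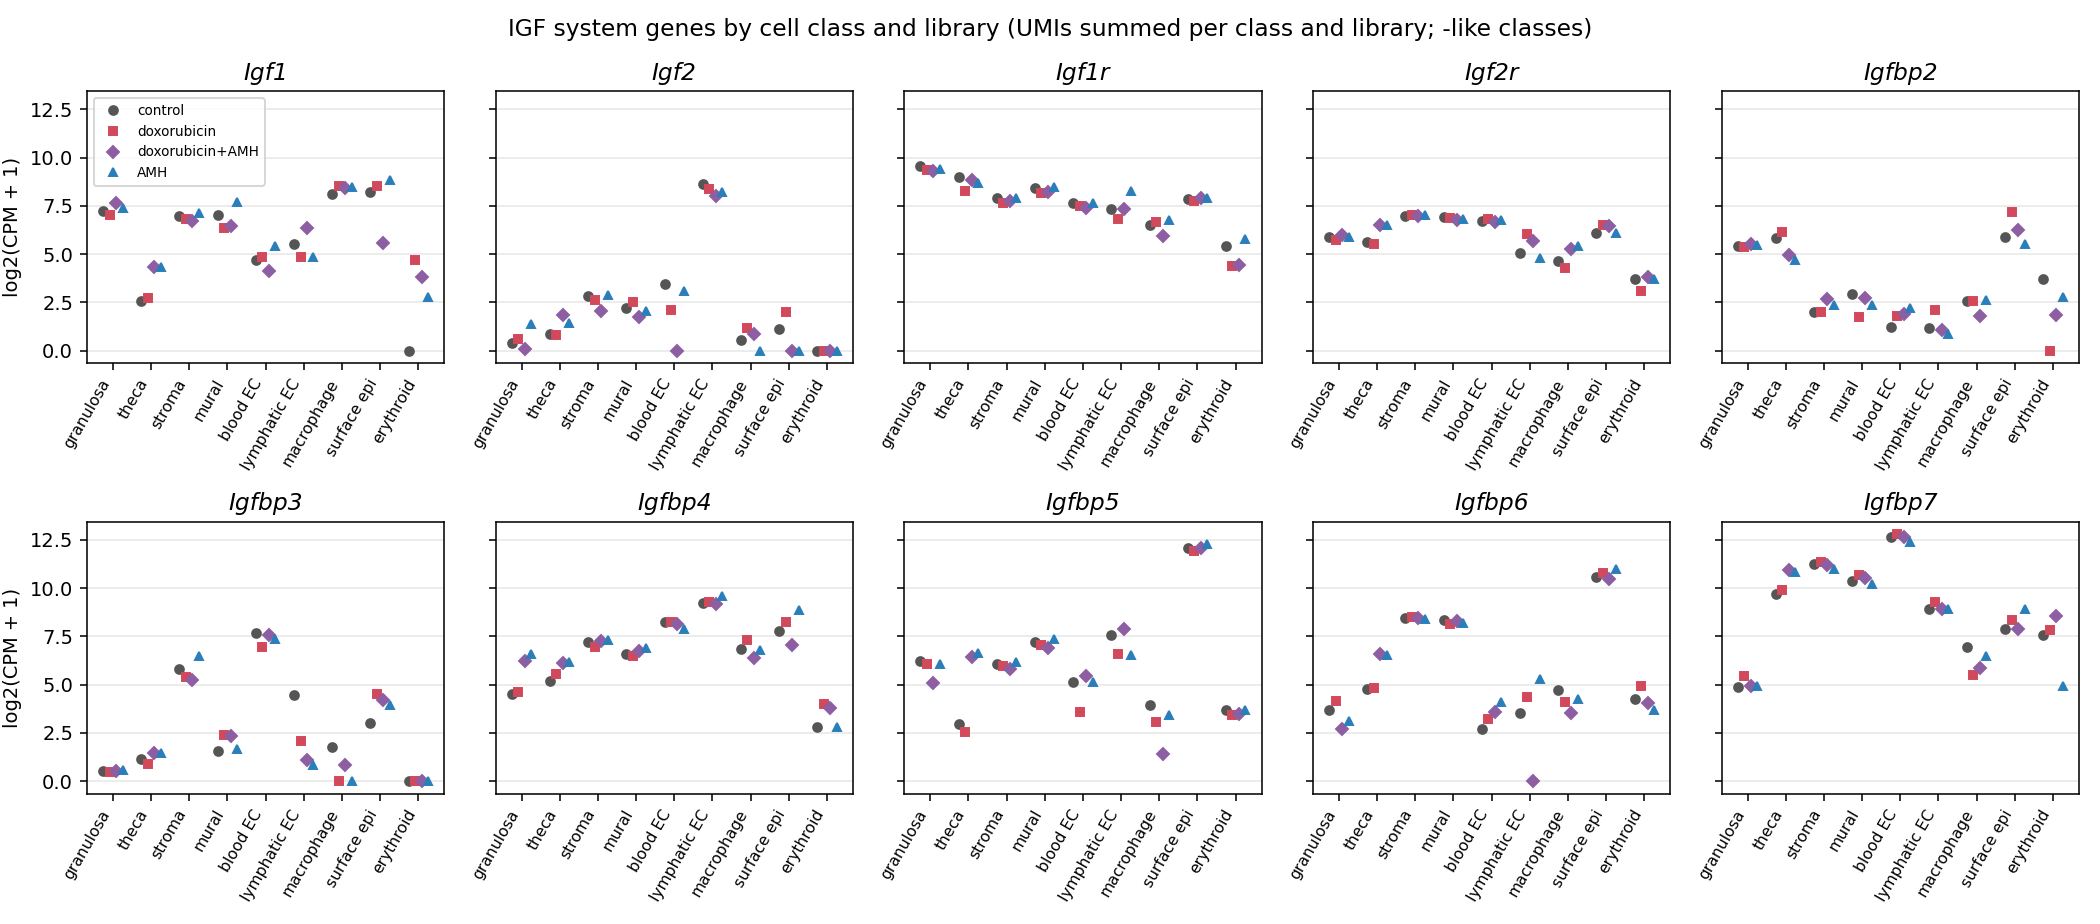
Each panel is 1 gene, with log2(CPM + 1) on the vertical axis and 9 of the named classes on the horizontal axis; points are the 4 libraries. Igf2 stands high in lymphatic endothelial-like cells, Igfbp5 and Igfbp6 in surface epithelial-like cells and Igfbp7 in blood endothelial-like cells. The theca-like points for Igfbp5, Igfbp6 and Igfbp7 split into a lower pair (control, doxorubicin) and a higher pair (doxorubicin+AMH, AMH).

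The receptor gene Igf1r was highest in granulosa-like cells, at 749, 645, 643 and 683 CPM, and this range did not overlap that of any other class. Theca-like cells were next, at 508, 305, 459 and 415 CPM, and overlapped mural smooth muscle-like cells (285 to 356 CPM). Granulosa-like cells held 61.0% to 69.3% of all Igf1r UMIs. No Igf1r ratio was past 2-fold in any of the 6 classes. In granulosa-like cells the widest of the 4 ratios was -0.22 (95% interval -0.23 to -0.20), for doxorubicin / control. Of the 6 granulosa-like clusters, the Inhba-led (527, 426, 532 and 541 CPM) and Apoa4-led (604, 543, 487 and 499 CPM) clusters had the lowest levels on average. The theca-like value was lowest in doxorubicin, with a log2 ratio to control of -0.73 (95% interval -0.78 to -0.69). It was lower in doxorubicin than in the other 3 libraries in the Cyp17a1-led theca-like cluster (509.9, 303, 413 and 409 CPM) and in the Sct-led cluster (485, 304, 504 and 412 CPM). The remaining theca-like cluster, led by Prss35, gave 883, 459.7, 444 and 416 CPM, with 31 and 21 cells behind its first 2 values.

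Igf2r was spread more evenly. Stroma-like cells had 124, 129, 125 and 130.2 CPM, mural smooth muscle-like cells 120.0, 116, 107 and 113 CPM and blood endothelial-like cells 106, 112, 102 and 107 CPM. The ranges of the last 2 classes overlapped. Granulosa-like cells had 58.7, 52.7, 62.0 and 58.5 CPM, with the 4 ratios between -0.16 and 0.23. In theca-like cells the levels split by AMH, at 47.9, 45.8, 89.9 and 89.4 CPM, with ratios of 0.90 (95% interval 0.79 to 1.01) for AMH / control and 0.97 (95% interval 0.85 to 1.09) for doxorubicin+AMH / doxorubicin, just under 2-fold. By cluster Igf2r was at 41.7, 39.3, 55.1 and 52.2 CPM in the Cyp17a1-led, 73.0, 66.1, 62.3 and 68.2 CPM in the Sct-led and 121, 125, 104 and 97.6 CPM in the Prss35-led theca-like cluster. Different clusters hold most of the class with and without AMH, and the part of this in the Igf2r ratios was not tested. In macrophage-like cells doxorubicin+AMH against doxorubicin gave 1.02 (95% interval 0.16 to 1.97), from 47 and 15 UMIs. The doxorubicin level of 18.8 CPM lay inside the erythroid-like interval (1.54 to 21.8 CPM) and is not told apart from background. The ratio was past 2-fold in 6 of 10 processing alternatives, and 5.02% of all genes in the class were past it. Igf2r lies at chr17:12682406-12769664 on the minus strand, and the antisense gene Airn overlaps it. Igf1r lies at chr7:67952827-68233668 on the plus strand. How strand was handled in counting was not given in the sources used here, so reads of Igf2r and Airn may not be fully told apart.

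Igfbp4 encodes a binding protein that is cleaved by PAPP-A and in most settings limits IGF action. In granulosa-like cells its level was 22.0, 23.4, 73.6 and 96.0 CPM, from 1412, 1415, 4495 and 7143 UMIs. Both libraries with AMH were above both without it. AMH against control gave a log2 ratio of 2.12 (95% interval 2.04 to 2.21), where 0.742% of all 6608 granulosa-like genes were past 2-fold in either direction. Doxorubicin+AMH against doxorubicin gave 1.65 (95% interval 1.57 to 1.74), where 0.847% were past 2-fold. Doxorubicin against control gave 0.09 (95% interval -0.02 to 0.19), and doxorubicin+AMH against AMH gave -0.38 (95% interval -0.44 to -0.33). The AMH / control ratio was between 1.90 and 2.24 over the 10 processing alternatives, and the doxorubicin+AMH / doxorubicin ratio between 1.44 and 1.75.

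The share of granulosa-like cells with an Igfbp4 UMI, after thinning each cell to 2000 UMIs, was 4.20, 5.78, 11.9 and 15.6%. Without thinning it was 28.7, 29.4, 59.5 and 61.7%, at median depths of 24756, 24607, 25635 and 21389 UMIs. Erythroid-like cells, which should lack the transcript, gave 0, 1.85, 1.72 and 0% after thinning and 3.39, 6.78, 6.85 and 2.56% before, at median depths of 5474, 6553, 5428 and 3905 UMIs. In control and doxorubicin the thinned granulosa-like shares lay inside the erythroid-like counting intervals (up to 7.71% and 9.89%), and in doxorubicin+AMH and AMH above them (up to 9.24% and 11.9%). The granulosa-like doxorubicin level lay inside the erythroid-like interval too (5.47 to 32.5 CPM), and the control level just above it (0.73 to 21.7 CPM), so by CPM the low side of these ratios is near background and their size depends on it. Those intervals rest on 6 and 2 erythroid-like UMIs. Without thinning, the granulosa-like shares were above the erythroid-like ones in every library, at greater depth.

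In all 6 granulosa-like clusters with at least 50 cells per library, both libraries with AMH were above both without it. The Cdh12-led cluster, whose leading genes include Gatm, had one of the lowest Igfbp4 levels of the 6 in control and the highest in AMH, at 11.9, 14.5, 122 and 189 CPM. Its log2 ratios were 3.99 (3.76 to 4.23) for AMH / control and 3.06 (2.82 to 3.31) for doxorubicin+AMH / doxorubicin, both against levels inside the erythroid-like CPM intervals. Those intervals rest on 2 and 6 UMIs, and by CPM the low levels are not told apart from background. The Prg4-led cluster had the highest control level, 57.9, 49.7, 135 and 139 CPM, and the smallest AMH / control ratio of the 6, 1.26 (1.13 to 1.40). In the cluster led by the cell division genes Ube2c and Top2a the levels were 13.6, 11.4, 52.8 and 66.0 CPM, in the Apoa4-led cluster 23.6, 29.9, 87.2 and 113 CPM. The Inhba-led cluster gave 9.23, 19.3, 52.3 and 59.5 CPM. Of the clusters named here, only the Prg4-led one had control and doxorubicin levels both above the erythroid-like intervals.

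**Figure D3:**
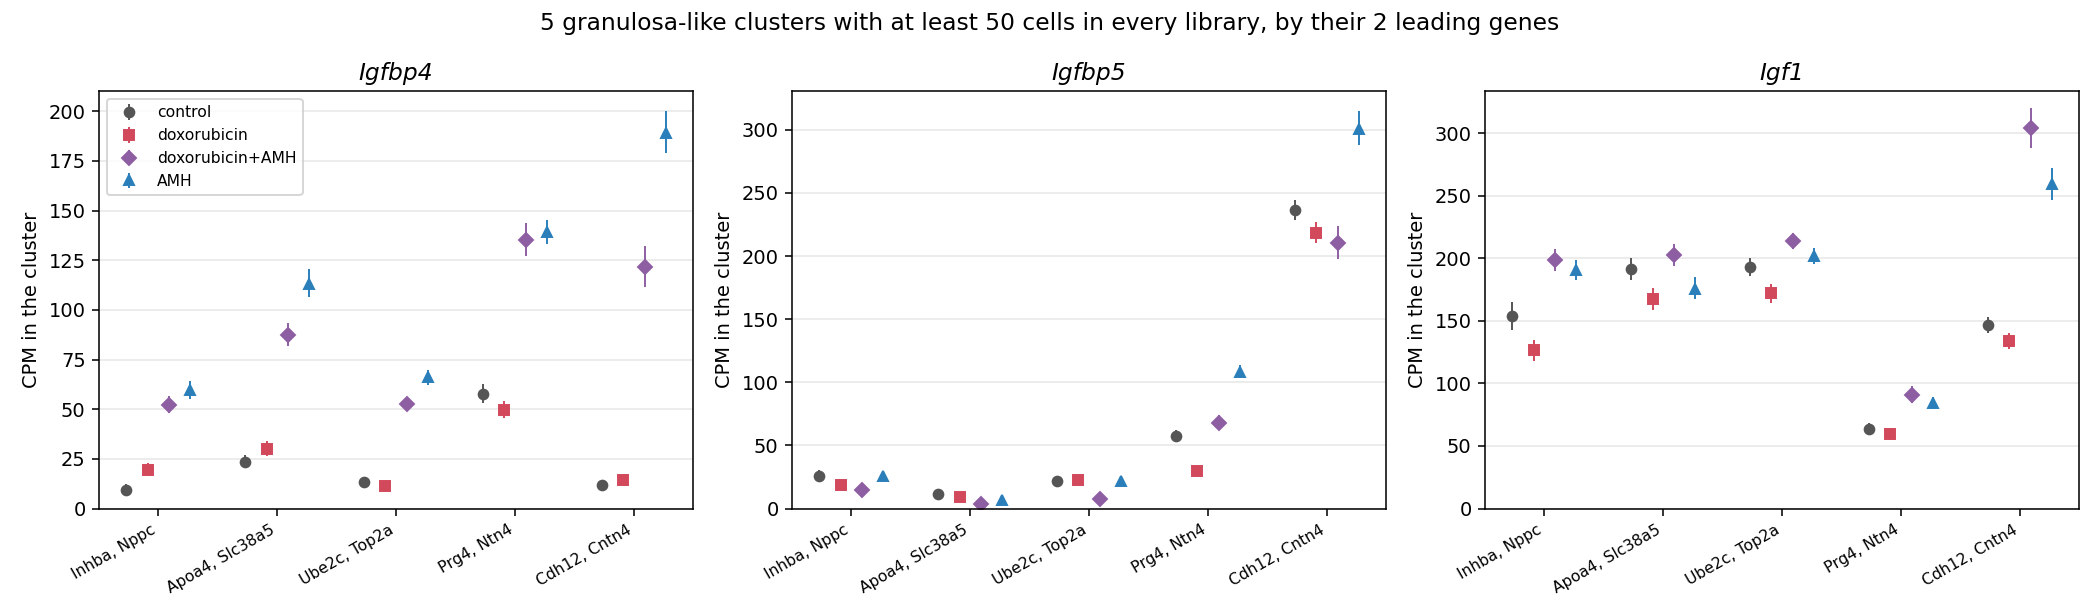
Levels in CPM (vertical axes, linear) of Igfbp4, Igfbp5 and Igf1 in 5 of the 6 granulosa-like clusters with at least 50 cells in every library, named by their 2 leading genes; points are libraries and bars exact 95% Poisson intervals. Igfbp4 is higher in doxorubicin+AMH and AMH than in control and doxorubicin in each cluster. Igfbp5 is high in the Cdh12-led cluster in every library, at 210.4 to 301 CPM, and Igf1 there is 134 to 304 CPM.

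Outside granulosa-like cells, Igfbp4 was highest in lymphatic endothelial-like cells, at 589, 629, 587 and 761 CPM, a range above that of every other class. Surface epithelial-like (218, 307, 133 and 470.2 CPM) and blood endothelial-like cells (308, 305, 279 and 234 CPM) came next and overlapped. Stroma-like cells had 145, 124, 151 and 159.5 CPM and mural smooth muscle-like cells 94.5, 87.7, 107 and 119 CPM, with the ratios in these 2 classes between -0.24 and 0.34. Theca-like cells had 35.0, 45.8, 68.7 and 70.1 CPM. AMH against control was 1.00 (95% interval 0.88 to 1.13) there, on the edge of 2-fold and past it in 6 of 10 alternatives; 6.58% of all genes in the class were past 2-fold. Macrophage-like cells gave 115, 158, 82.1 and 111 CPM, highest in doxorubicin, and doxorubicin+AMH against doxorubicin was -0.94 (95% interval -1.34 to -0.55). In the unnamed clusters 12 and 16, low-depth cells kept out of the classes, Igfbp4 was at 17.9, 18.2, 32.8 and 51.6 and 49.1, 9.09, 123 and 148 CPM.

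Igfbp5, whose product binds IGFs and also matrix, had its highest levels in surface epithelial-like cells, 4292, 3863, 4398 and 5009 CPM, a range far above any other class. These cells were 105, 92, 37 and 65 in number and held 57.4%, 61.0%, 27.2% and 41.7% of all Igfbp5 UMIs. After thinning to 2000 UMIs, 92.1, 89.7, 93.9 and 91.8% of them had an Igfbp5 UMI, and 99.0, 95.7, 94.6 and 93.8% did before thinning, at median depths of 16505, 18574, 8790 and 13822 UMIs. Erythroid-like cells gave 0, 3.70, 1.72 and 0% and 1.69, 5.08, 5.48 and 5.13%, at the depths given above. Lymphatic endothelial-like (191, 95.5, 239 and 92.7 CPM) and mural smooth muscle-like cells (147, 132, 120.1 and 165 CPM) followed and overlapped each other.

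Igfbp5 in theca-like cells was at 6.85, 4.79, 85.2 and 97.5 CPM, and the 2 libraries with AMH stood apart from the 2 without. The pair passed the level filter only through the libraries with AMH. Erythroid-like Igfbp5 was at 12.0, 9.94, 10.4 and 11.9 CPM, from 4, 4, 4 and 2 UMIs. By CPM the theca-like control and doxorubicin values are not told apart from that background, and the size of the ratios depends on it. Without thinning, 10.2 and 8.69% of theca-like cells in control and doxorubicin had an Igfbp5 UMI. The erythroid-like shares were 1.69 and 5.08%, at lower depth. The log2 ratios were 3.83 (95% interval 3.61 to 4.06) for AMH / control and 4.15 (95% interval 3.85 to 4.47) for doxorubicin+AMH / doxorubicin, where 6.49% of all 6272 genes of the class were past 2-fold in the latter. Over the alternatives the latter ran from 2.31 (each cell gated on its own markers) to 4.89 (each library clustered alone). Other binding protein genes of the class differed between the same pairs of libraries. Igfbp6 had 26.1, 27.7, 96.5 and 91.3 CPM, with ratios of 1.81 (95% interval 1.68 to 1.94) and 1.80 (95% interval 1.66 to 1.95). Erythroid-like Igfbp6 was at 18.0, 29.8, 15.5 and 11.9 CPM, so by CPM the theca-like control and doxorubicin values are near background too. Igfbp7 had 821, 946, 1981 and 1803 CPM, with 1.13 (95% interval 1.11 to 1.16) and 1.07 (95% interval 1.04 to 1.09). Igfbp2 had the opposite sign, at 56.6, 69.2, 30.1 and 24.7 CPM, with -1.20 (95% interval -1.35 to -1.04) and -1.20 (95% interval -1.35 to -1.05). The AMH value of Igfbp2 lay inside the erythroid-like interval (0.15 to 33.2 CPM). With each cell gated on its own markers, the Igfbp2 ratios were -0.65 and -0.93, no longer past 2-fold.

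Different clusters hold most of the theca-like class in the libraries with and without AMH. A cluster led by Cyp17a1 and Cyp11a1, the steroid enzyme genes of theca, held 637, 405, 45 and 39 cells, a cluster led by Prss35 and Abhd2 held 31, 21, 556 and 750 cells, and a cluster led by Sct and Ryr2 held 175, 161, 141 and 117 cells. The 7 summed theca markers of the class were at 14815, 14246, 5675 and 4760.3 CPM, the 7 stroma markers at 816, 858, 1551 and 1469 CPM, and none of either list was at 0. Median depth was 20551, 24344, 14374 and 13100.5 UMIs and the median mitochondrial share 8.04, 7.50, 5.49 and 5.62%. These values moved with the class ratios, and their part in them was not tested. Values by cluster follow.

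Within the Prss35-led cluster Igfbp6 was at 115, 130.0, 112 and 99.8 CPM and within the Sct-led cluster at 81.1, 76.7, 73.1 and 76.3 CPM. Neither cluster held a difference near that of the whole class. In the Cyp17a1-led cluster Igfbp6 was at 12.9, 13.1, 24.8 and 27.6 CPM, from 271, 199, 22 and 28 UMIs. Igfbp7 differed less within clusters than in the class. It was at 647, 739, 1219.8 and 1154 CPM in the Cyp17a1-led, 1535, 1608, 1916 and 1871 CPM in the Sct-led and 2392, 3144, 2068 and 1833 CPM in the Prss35-led cluster. The Cyp17a1-led and Sct-led cells were higher with AMH, and the Prss35-led cells were lower. Igfbp5 was at 16.5, 74.3, 119.9 and 122 CPM in the Prss35-led cluster, from 3, 16, 1321 and 1680 UMIs, at 17.7, 10.1, 15.2 and 27.5 CPM in the Sct-led and at 4.34, 2.38, 5.63 and 10.8 CPM in the Cyp17a1-led cluster. The Cyp17a1-led values were below those of erythroid-like cells in each library, and the Sct-led values lay inside the erythroid-like counting intervals. By CPM neither is told apart from background. The Igfbp5 control and doxorubicin values in the Prss35-led cluster rest on 3 and 16 UMIs. Igfbp2 was higher in the Cyp17a1-led cluster, at 66.0, 79.2, 60.8 and 46.3 CPM, than in the Sct-led cluster, at 15.8, 31.2, 28.9 and 27.8 CPM. The Prss35-led cluster gave 27.4, 78.9, 28.0 and 22.3 CPM, from 5, 17, 309 and 307 UMIs. Igfbp4 was at 31.1, 42.3, 82.1 and 68.0 CPM in the Cyp17a1-led, 51.5, 54.4, 55.6 and 60.6 CPM in the Sct-led and 60.3, 130.0, 73.0 and 72.7 CPM in the Prss35-led cluster. Both libraries with AMH were above both without it in the first 2 of these clusters, and the Prss35-led value was highest in doxorubicin, from 28 UMIs. The Cyp17a1-led values in doxorubicin+AMH and AMH come from 45 and 39 cells.

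**Figure D4:**
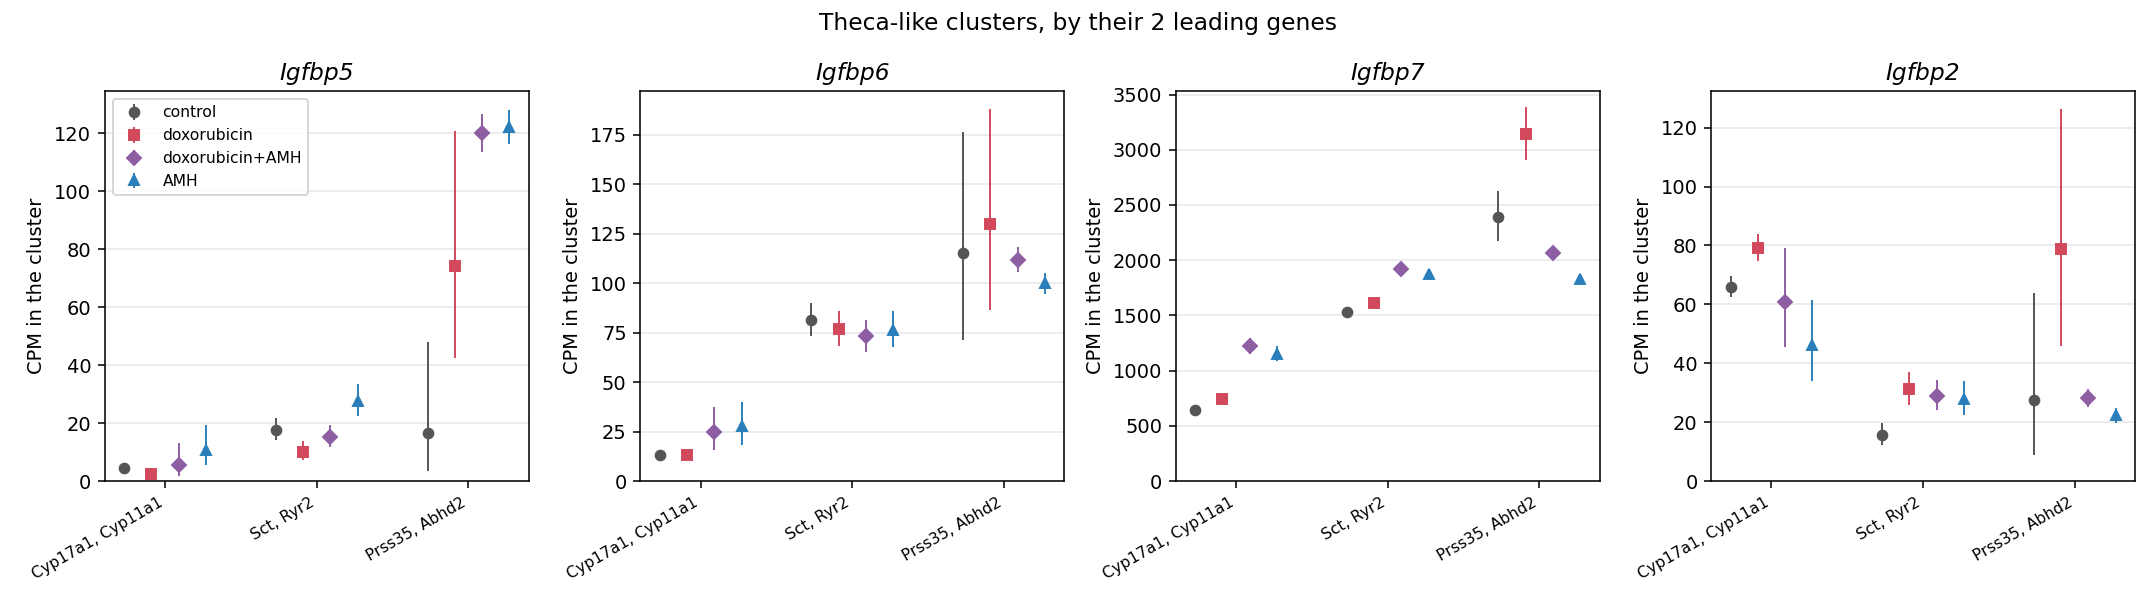
Levels in CPM (vertical axes, linear) of Igfbp5, Igfbp6, Igfbp7 and Igfbp2 in the 3 theca-like clusters, named by their 2 leading genes; points are libraries and bars exact 95% Poisson intervals. Igfbp6 is nearly level over the libraries in the Sct-led cluster (73.1 to 81.1 CPM), and wide bars mark the control and doxorubicin libraries of the Prss35-led cluster, with 31 and 21 cells.

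In granulosa-like cells Igfbp5 was lower in doxorubicin+AMH than in the other 3 libraries, at 73.9, 67.2, 32.7 and 65.2 CPM. The ratios were -1.04 (95% interval -1.12 to -0.96) against doxorubicin and -0.99 (95% interval -1.07 to -0.92) against AMH. Without the 3 clusters mostly of 1 library, the first was -0.96, no longer past 2-fold. The Cdh12-led cluster gave 3374, 2826, 983 and 1913 of the 4736, 4065, 2000 and 4854 granulosa-like Igfbp5 UMIs, from 374, 323, 164 and 243 cells. Within it Igfbp5 was at 236, 219, 210.4 and 301 CPM, and doxorubicin+AMH against doxorubicin was -0.06 (-0.16 to 0.05). In the Prg4-led cluster, the next highest, it was at 57.1, 29.9, 68.1 and 108 CPM. There doxorubicin+AMH against doxorubicin was 1.19 (0.98 to 1.40), opposite in sign to the class. In the Ube2c-led cluster Igfbp5 was at 21.8, 22.5, 7.58 and 21.9 CPM, inside the erythroid-like intervals in each library.

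Doxorubicin alone was the low library for Igfbp5 in several non-follicular cells. In blood endothelial-like cells the levels were 34.7, 11.2, 42.5 and 34.8 CPM, from 128, 31, 46 and 78 UMIs. Doxorubicin against control gave -1.63 (95% interval -2.25 to -1.05), and 0.421% of all genes of the class were past 2-fold. The doxorubicin value lay inside the counting interval of erythroid-like cells of that library (2.71 to 25.5 CPM), so it is not told apart from background, and the ratios to it are not sharp sizes. Doxorubicin+AMH against doxorubicin gave 1.92 (95% interval 1.23 to 2.63), where 1.48% of all genes were, and doxorubicin+AMH against AMH gave 0.29 (95% interval -0.27 to 0.83). Summed stroma markers in blood endothelial-like cells were 301, 334, 276 and 629 CPM and mural markers 728, 780.1, 1142 and 763 CPM, and their part in the Igfbp5 values was not tested. In the stroma-like cluster led by Clec3b and Dpt, Igfbp5 was at 151, 41.4, 228 and 227 CPM, with -1.87 (-2.15 to -1.59) for doxorubicin / control and 2.46 (2.17 to 2.76) for doxorubicin+AMH / doxorubicin. The stroma-like class as a whole had 65.8, 61.7, 54.5 and 70.5 CPM, with no ratio past 2-fold, and the Grin2b-led (45.2, 61.7, 33.3 and 43.7 CPM) and Lrat-led (63.6, 93.5, 59.5 and 46.5 CPM) clusters were highest in doxorubicin. In the Des-led mural cluster Igfbp5 was at 395, 187, 660.0 and 608 CPM, with 54 UMIs from 19 cells in doxorubicin. The Acta2-led mural cluster was again highest in doxorubicin, at 81.6, 126, 91.3 and 67.3 CPM.

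**Figure D5:**
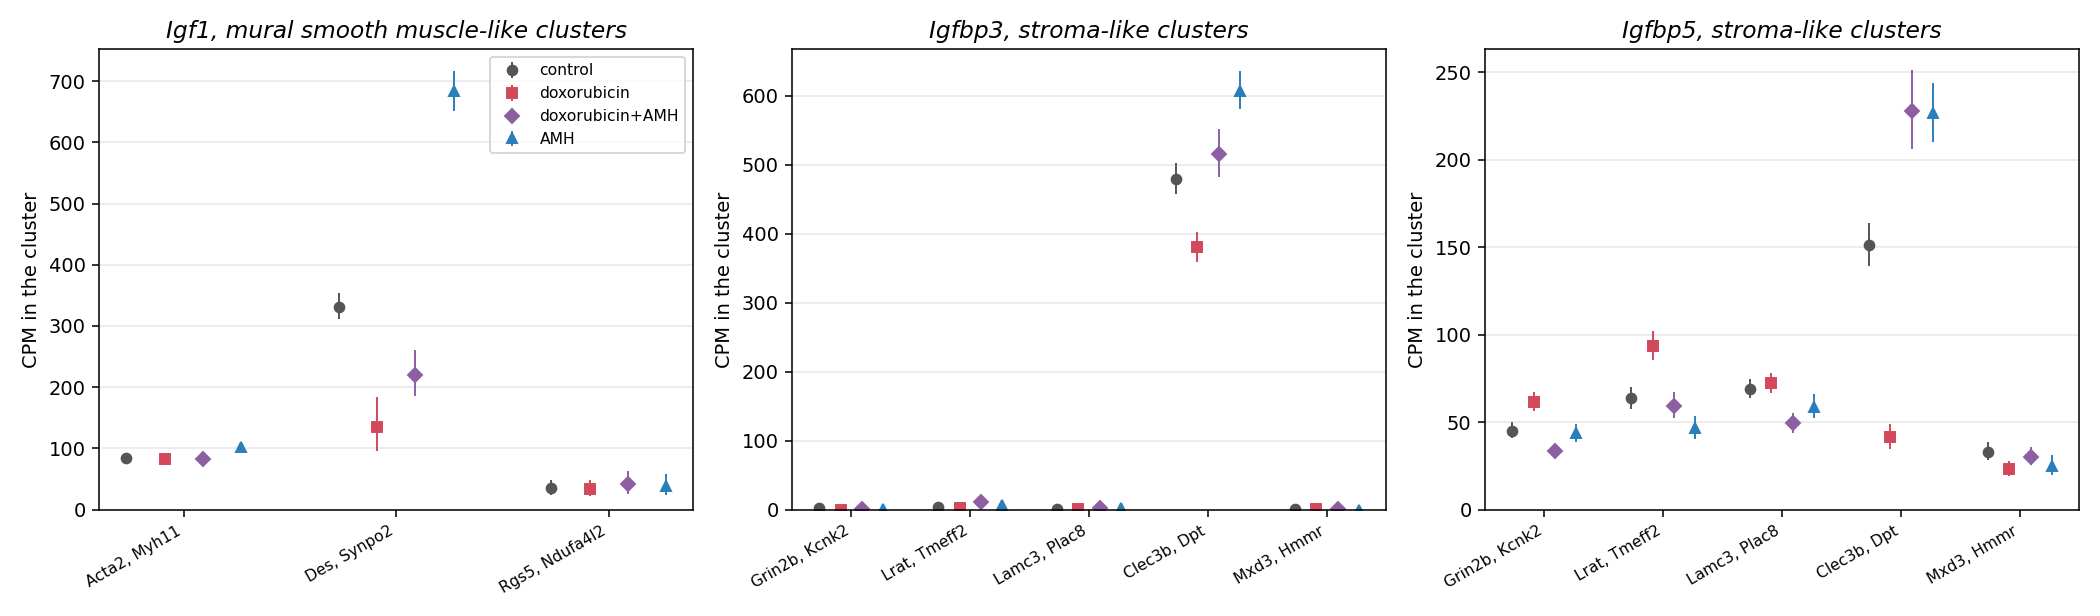
Levels in CPM (vertical axes, linear) of Igf1 in the 3 mural smooth muscle-like clusters and of Igfbp3 and Igfbp5 in the 5 stroma-like clusters with at least 50 cells per library; points are libraries and bars exact 95% Poisson intervals. Igf1 is highest in the Des-led cluster of the mural class and lowest in the Rgs5-led one (33.6 to 41.4 CPM). Igfbp3 stands high in the Clec3b-led cluster (380.2 to 607 CPM), which has its lowest Igfbp5 level in doxorubicin.

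Igfbp3, at chr11:7206086-7213923, encodes the main IGF carrier of serum. It was highest in blood endothelial-like cells, at 201, 122, 190.1 and 165 CPM, above all other classes. Stroma-like cells were next, at 55.1, 41.1, 37.5 and 87.1 CPM, and nearly all of their counts lay in the Clec3b-led cluster, of which Igfbp3 is itself a leading gene, at 479, 380.2, 516 and 607 CPM. The class ratio of doxorubicin+AMH to AMH was -1.22 (95% interval -1.33 to -1.11), past 2-fold, where 0.15% of all stroma-like genes were. Inside the Clec3b-led cluster the ratio was -0.23 (-0.35 to -0.12). The cluster's values rest on 308, 204, 156 and 277 cells. Weighting each cell equally gave a class ratio of -0.98. In blood endothelial-like cells doxorubicin against control was -0.72 (95% interval -0.91 to -0.54), short of 2-fold. Granulosa-like cells did not exceed 0.497 CPM in any library.

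Igfbp2 was the binding protein gene found in granulosa-like cells at an even level, 41.7, 40.5, 45.5 and 43.1 CPM, with ratios between -0.04 and 0.17 in the 4 comparisons. Surface epithelial-like cells had 57.8, 142, 76.2 and 45.0 CPM, which overlapped theca-like cells in range. Stroma-like, mural, endothelial and macrophage-like cells did not exceed 6.71 CPM in any library.

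Igfbp6, at chr15:102144362-102149511, encodes a binding protein with a preference for IGF2. It was highest in surface epithelial-like cells, at 1535, 1741, 1443 and 2041 CPM. Stroma-like cells had 347, 359, 345 and 334 CPM and mural smooth muscle-like cells 327, 278, 314 and 296 CPM, and neither range overlapped that of another class. Ratios in those 2 classes lay between -0.23 and 0.17. Granulosa-like cells had 12.1, 16.6, 5.42 and 7.61 CPM, below the 18.0, 29.8, 15.5 and 11.9 CPM of erythroid-like cells in each library. By CPM this level is not told apart from background, though the erythroid-like values rest on 6, 12, 6 and 2 UMIs. Without thinning, 18.98, 25.01, 10.86 and 12.97% of granulosa-like cells had an Igfbp6 UMI. The erythroid-like shares were 3.39, 11.86, 8.22 and 5.13%, in cells of lower depth.

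Igfbp7, at chr5:77349240-77408041, encodes a matrix protein that binds IGFs only weakly. Blood endothelial-like cells had 6309, 7072, 6450.1 and 5326 CPM, stroma-like cells 2476, 2598, 2313 and 2035 CPM and mural smooth muscle-like cells 1326, 1640.2, 1476 and 1199.7 CPM. In each of these 3 classes doxorubicin was the highest library and AMH the lowest. The ratios there lay between -0.28 and 0.31. Mural cells of the Rgs5-led cluster reached 3558, 3919, 3879 and 3236 CPM. Granulosa-like cells had 28.2, 43.3, 30.0 and 29.0 CPM, in 4.84, 13.0, 4.34 and 4.51% of thinned cells. These shares were below the 15.2, 14.8, 15.5 and 3.45% of erythroid-like cells except in AMH, so the granulosa-like level outside the clusters mostly of 1 library is not told apart from background. The 2 such clusters from doxorubicin had 608 and 292 CPM there, above the 224 CPM of erythroid-like cells. Before thinning the shares were 42.5, 49.9, 38.5 and 34.1% in granulosa-like and 20.3, 30.5, 20.5 and 12.8% in erythroid-like cells, at the depths given for Igfbp4. The doxorubicin excess over control, 0.62 (95% interval 0.53 to 0.70), was -0.10 without the clusters mostly of 1 library. In macrophage-like cells doxorubicin against control gave -1.50 (95% interval -2.05 to -0.98), from 35 and 254 UMIs, where 3.87% of all genes were past 2-fold. The macrophage-like levels were 124, 43.9, 57.7 and 89.0 CPM against 186, 224, 378 and 29.8 CPM in erythroid-like cells, below them except in AMH, so by CPM neither side of this ratio is told apart from background. The erythroid-like level is an uneven reference, from 62, 90, 146 and 5 UMIs. Without thinning, 31.0, 29.5, 28.6 and 27.1% of macrophage-like cells had an Igfbp7 UMI, near or above the erythroid-like shares. With each cell weighted equally the ratio was -0.29. Summed stroma markers in macrophage-like cells were 353, 99.0, 136 and 347 CPM, lowest in doxorubicin too; their part in the Igfbp7 value was not tested.

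The doxorubicin ratio with AMH was set against that without it, as a difference that was not tested. For Igfbp5 in blood endothelial-like cells the ratio was -1.63 without and 0.29 with AMH, a difference of 1.92. Igf1 in the same cells gave 0.19 and -1.35, a difference of -1.54. Each of these rests on at least 1 value not told apart from background, as given above. Igfbp3 in these cells gave -0.72 and 0.21, a difference of 0.93. Igf1r in theca-like cells gave -0.73 and 0.14, a difference of 0.88, while Igf1r in macrophage-like cells gave 0.17 and -0.84, a difference of -1.01. Igfbp4 in macrophage-like cells gave 0.46 and -0.44, a difference of -0.90. The Igfbp7 difference in these cells, 0.87, rests on values not told apart from background. Igfbp5 in granulosa-like cells gave -0.14 and -0.99, a difference of -0.86. Blood endothelial-like cells numbered 171, 124, 59 and 82.

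Another 30 genes of the pathway were listed beside the 10: binding and release, receptors and adaptors, control of the ligands, and the kinase cascade. In granulosa-like cells 16 of the 30 passed the level filter and none was past 2-fold in any of the 4 comparisons. The same held in stroma-like (20 passed), mural smooth muscle-like (18) and macrophage-like cells (16). Of all granulosa-like genes, 0.742% (AMH / control) and 0.847% (doxorubicin+AMH / doxorubicin) were past 2-fold. For doxorubicin+AMH / AMH it was 0.15% of stroma-like and 0.592% of mural genes. In macrophage-like cells it was 3.87% (doxorubicin / control) and 5.02% (doxorubicin+AMH / doxorubicin). At these shares, finding none among so few listed genes is near background. In theca-like cells 20 passed. The share of all theca-like genes past 2-fold was 6.58% in AMH / control. In doxorubicin+AMH / doxorubicin it was 6.49%, so counts of 2 and 3 among 20 listed genes are read as near that background. Their values were not split by cluster, although different clusters hold the class. For AMH / control 1 was higher there, Ghr, the growth hormone receptor, and 1 lower, Stc1, an inhibitor of PAPP-A. Ghr was at 75.8, 79.5, 183 and 191 CPM, with a ratio of 1.33 (95% interval 1.25 to 1.41). Stc1 was at 367, 246, 135 and 108 CPM, with -1.76 (95% interval -1.83 to -1.69). For doxorubicin+AMH / doxorubicin 2 were higher, Ghr (1.20) and Pappa, the IGFBP4 protease, and 1 lower, Foxo3, a target of AKT. Pappa was at 23.7, 12.2, 37.7 and 40.6 CPM, with a ratio of 1.63 (95% interval 1.41 to 1.85), and Foxo3 was at 73.6, 91.6, 45.8 and 61.5 CPM. In blood endothelial-like cells 18 passed. Irs2, an insulin receptor substrate, was higher for doxorubicin / control, at 1.03 (95% interval 0.50 to 1.57), where 0.421% of all genes of the class were past 2-fold. For AMH / control, where 1.58% of all genes were past 2-fold, Irs2 gave 1.09 and Stc1 gave 1.36 (95% interval 0.93 to 1.80). The median log2 ratio of the listed genes that passed lay between -0.30 and 0.13 in all classes and comparisons, and that of all genes between -0.08 and 0.03. Pappa in granulosa-like cells was under the filter, at 4.02, 4.23, 9.71 and 13.6 CPM. These low levels were not set against erythroid-like cells, so no library pattern is read from them.

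For each gene the 3 most alike were taken by Pearson correlation of log2(CPM + 5) over 37 sums of a class and a library with at least 50 cells. The 37 points share libraries, depth and classes, so these values describe class patterns and carry no test. For Igfbp4 they included Scoc (0.895) and Tgm2 (0.881), for Igfbp5 Fam184a (0.914), Arhgap44 (0.902) and Tnfsf13os (0.900), for Igfbp6 Fmod (0.960), Dcn (0.947) and Col6a2 (0.943) and for Igfbp7 Col4a2 (0.945), Col4a1 (0.943) and Cxcl12 (0.917). The Igfbp6 and Igfbp7 neighbours include matrix and basement membrane genes. Igf1 was most alike Gga2 (0.847), Emilin2 (0.819) and Axl (0.809), and Igf2 Gap43 (0.963), Ackr2 (0.961) and Shc3 (0.959). Igf1r was most alike Hdlbp (0.932), Rere (0.925) and Naa35 (0.922), and Igf2r Airn (0.918) and Rplp0 (0.878), the first of which is the gene that overlaps it. Igfbp2 was most alike Sh2d4a (0.917), Vnn1 (0.900) and Gsta4 (0.887) and Igfbp3 Clec14a (0.902), Uaca (0.888) and Crispld1 (0.882). Among the 10 genes themselves, the closest pair was Igfbp5 and Igfbp6, at 0.765.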

How the data were processed

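Ovaries were digested with papain and collagenase and single cells prepared with the 10x 3′ v3.1 kit, aiming at 10000 cells per library, per the labels' protocols. The deposited values are UMI counts per gene and cell, whole numbers that the authors had not normalized, made with Cell Ranger 7.0.0 per the file headers. The submitters' processing notes name mm10, R 4.2.0 and Seurat 4.1.0. The annotation, and the handling of reads in introns, are not given in the sources used here.

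Filters removed cells under 1000 UMIs or with over 20% of UMIs from mitochondrial genes. Scrublet's automatic threshold marked 267, 0, 1 and 0 cells in control, doxorubicin, doxorubicin+AMH and AMH, so it was not used. The cells with the highest scores, 0.8% per 1000 cells, were removed instead (677, 408, 489 and 719). Cells of all libraries were clustered together in scanpy 1.11.5 (2000 variable genes, 30 principal components, 20 neighbours, Leiden resolution 1.0 in leidenalg 0.10.2 with igraph 0.11.9). A cluster was named where at least 3 markers and 60% of a list were raised in it, unless its leading genes went against the name or its depth was under 33.3% of its library's median with no marker of that name among its top 10 genes. A macrophage-like cluster of 185 cells and 2 oviduct epithelial-like clusters were under that depth but had such a marker and were kept. The 4 unnamed clusters held 4.23%, 6.82%, 8.77% and 10.6% of kept cells. Counts were summed per class and library with numpy 2.4.6, and intervals came from scipy 1.17.1 (Poisson for levels, conditional binomial for ratios). The scripts were tested on simulated data. With 1 library per group no test was made. Depth sets the precision: low UMI counts leave wide intervals, which are given beside most but not all ratios.

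All 10 genes are named. So are the 30 pathway genes past 2-fold in a class and the 3 most alike genes of each; 2 of the latter and the values of 1 granulosa-like cluster are not reported here. The genes and lists were chosen with earlier results of these data known. The alternatives were median-of-ratios scaling, 5 CPM added, equal weight per cell, a 500 UMI minimum, a 10% mitochondrial limit, doublets left in, each library clustered alone, each cell gated on its markers, and no filter on low levels. A further alternative left out the granulosa-like clusters mostly of 1 library.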

Additional observations from a re-analysis of the deposited data

Results flagged for a closer look

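Igfbp5 had opposite signs between classes in the comparison of doxorubicin+AMH with doxorubicin. The log2 ratio was 4.15 in theca-like cells and 1.92 in blood endothelial-like cells, but -1.04 in granulosa-like cells. Each group was 1 library, so the difference between classes was not tested. The doxorubicin values behind both positive ratios (4.79 and 11.2 CPM) are not told apart from the level in erythroid-like cells (9.94 CPM), and theca-like Igfbp5 passed the level filter only through the libraries with AMH. The granulosa-like ratio was past 2-fold in 5 of 10 alternatives, and the others in all 10. Of these settings, dropping the level filter leaves each ratio as it was. Leaving out the clusters mostly of 1 library alters granulosa-like ratios only.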

How the results depend on the processing

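No paired analysis was possible because each group was 1 library. Of the 19 ratios past 2-fold, 9 stayed past it under all 10 alternatives, and all 19 kept their sign under all 10. Some of these outcomes were fixed in advance. Dropping the level filter leaves each ratio as it was, and adding 5 CPM cannot change a sign. Leaving out the clusters mostly of 1 library alters granulosa-like ratios only. Of the 164 ratios of the 41 pairs, 108 kept their sign under all 10. Weighting each cell equally left 1 pair past 2-fold for doxorubicin+AMH / AMH, against 3. Without the filter on low levels, over all 60 pairs, the counts were 7 in place of 2 for doxorubicin / control and 10 in place of 3 for doxorubicin+AMH / AMH. AMH / control gave 13 in place of 6, and doxorubicin+AMH / doxorubicin 19 in place of 8. The shares of all genes past 2-fold without the filter are not given here, so these unfiltered counts are not read as a result about the 10 genes. The other counts were within 1.5 times of the values reported. The setting without clusters mostly of 1 library was chosen after seeing the data. Between animals, the spread was not measured, and pooled ovaries cannot show it. Small classes limit the endothelial-like and macrophage-like ratios.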

Other observations

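In the unnamed clusters, which belong to no comparison above, Igf1r was at 1208, 1150.1, 1249 and 1267 CPM in the cluster led by Unc5c and at 1173, 1167, 820.3 and 885 CPM in the cluster led by Gm26917 and Lars2, higher in each library than in the granulosa-like class. In the latter cluster Igfbp4 was at 49.1, 9.09, 123 and 148 CPM, highest in doxorubicin+AMH and AMH. Igfbp7 was at 608 CPM in doxorubicin in the granulosa-like cluster led by B230209E15Rik and Tub, and at 292 CPM in the one led by Amh and Aard, both nearly all from that library.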
